A study of Rattus norvegicus with 2 samples.

Results

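Myog-positive myogenic barcodes of rat and mouse skeletal muscle were examined, that is, captured cells with transcripts of Myog, which encodes the transcription factor myogenin. They were chosen by reading the counts themselves. A barcode needed at least 2 unique molecular identifiers (UMIs, each marking 1 captured transcript) of Myog, at least 1 UMI of Cdh15, Myod1, Chrna1, Megf10 or Asb5, and no UMI of Ptprc, Pecam1 or Pdgfra, which mark immune, endothelial and fibro-adipogenic cells. Of 23416 deposited barcodes 21154 passed the filters on depth and mitochondrial share, and 179 of these met the rule. They were compared with 441 Myog-negative myogenic barcodes, which had no Myog UMI and at least 2 of the genes Pax7, Myf5, Cdh15 and Megf10. The levels of all these genes were used by the choice and are given as a description only.

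The cells came from 1 rat-mouse chimera and 1 Sprague-Dawley (SD) rat, and the study asked which muscle cell types the injected mouse cells had formed. The chimera was an SD rat embryo that had received mouse induced pluripotent stem cells (iPSCs) at the morula stage. These iPSCs carried Dmd mdx, the dystrophin mutation of a mouse model of Duchenne muscular dystrophy, with the reading frame restored by CRISPR/Cas9, and Pax7-nGFP, a nuclear GFP reporter driven by Pax7. The SD rat received no cells, its genome and that of the host rat were not edited, and no other treatment is given for either animal. Both were adults, with their age and sex not given in the labels. Muscle was pooled from the whole body, digested with collagenase II and sorted for live cells by a calcein violet dye, so a muscle of origin cannot be assigned. The host rat kept its own satellite cells, and its rat and mouse cells shared a digest and a library.

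Satellite cells are the stem cells of muscle fibres and are held in reserve by Pax7. When they are activated they divide as myoblasts under Myf5 and MyoD, and myogenin then switches on the genes of terminal differentiation. Differentiating myoblasts, called myocytes, leave the cell cycle, make the fusogens Myomaker and Myomixer, fuse with each other or with fibres, and build sarcomeres.

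The deposited counts sum to 70957559 UMIs over 10117 barcodes for the SD rat and to 118872850 UMIs over 13299 barcodes for the chimera. The libraries shared 43 barcode sequences, of which 1 belonged to a Myog-positive barcode of the chimera. With 1 library from each animal there are no replicates to set a difference against, cells were not treated as replicates, and no test was run. All intervals are exact 95% intervals for counting error only. The chimera was mapped to rat and mouse genes together, and the rows of a gene symbol were summed. Species was read from the share of a chimera barcode's UMIs on mouse rows, with 80% or more taken as mouse, 20% or less as rat, and the rest as mixed.

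Of the 179 Myog-positive barcodes 55 were from the SD rat, 112 were rat barcodes of the chimera (chimera rat), 10 were mouse barcodes of the chimera (chimera mouse) and 2 were mixed. The mixed barcodes had 23.8% and 27.0% of their UMIs on mouse rows, 4 and 3 Myog UMIs and no Mymk or Mymx, and were left out of the ratios. The chimera mouse barcodes had between 97.4% and 99.4% of their UMIs on mouse rows. The chimera rat barcodes had between 5.79% and 18.3% there, with a median of 8.92%, so a low share of mouse rows was present in every one of them. Median depth was 11788 UMIs in the SD rat, 11665 in the chimera rat and 17248.5 in the chimera mouse Myog-positive barcodes. The Myog-negative barcodes were shallower, with medians of 6589.5, 7754 and 9060 UMIs.

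Myog itself ranged from 2 to 63 UMIs per SD rat barcode with a median of 16, from 2 to 166 in the chimera rat with a median of 25.5, and from 3 to 96 in the chimera mouse with a median of 8. In the chimera rat 56.0% of the Myog UMIs lay on the mouse row, so these counts may not be a like measure across the populations. The rule cut where low values were common. Just inside it lay 12 SD rat and 13 chimera rat barcodes with exactly 2 Myog UMIs, and just outside it 45 SD rat, 39 chimera rat and 3 chimera mouse barcodes with exactly 1. Of the 12 SD rat barcodes with 2 UMIs, 8 held Actc1 and 1 held Mymk or Mymx, against 15 and 3 of the 45 with 1 UMI. In all 94 SD rat barcodes had 2 or more Myog UMIs, and 14 of them were lost to a gene of another cell type and 25 for want of a second myogenic gene. In the chimera rat 170 barcodes had 2 or more, and 37 and 21 were lost in the same ways. The barcodes lost for want of a myogenic gene had a median of 10.5% of their UMIs on adult fibre genes in the SD rat and 13.1% in the chimera rat, against 0.270% and 0.146% in the Myog-positive barcodes.

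**Figure D1:**
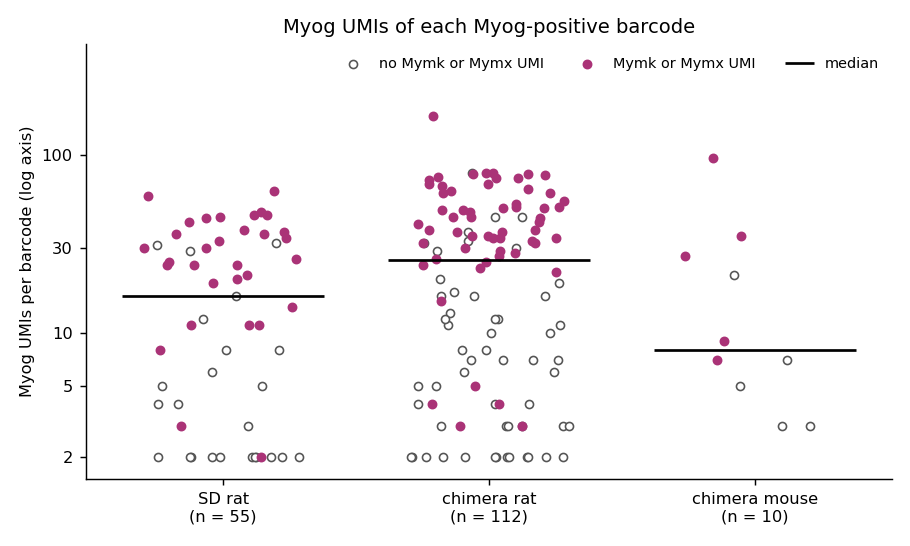
Myog UMIs of each Myog-positive barcode (log axis) in the SD rat, chimera rat and chimera mouse, with the median as a line. Filled points had a UMI of Mymk or Mymx (31 of 55, 58 of 112 and 5 of 10), and in both rat populations they lay mostly in the upper part of the range.

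The plot of Myog UMIs shows each barcode, and the filled points are those with a fusogen transcript. The name of differentiating myoblasts was checked against 9 genes that the rule did not use. Cdkn1c, which encodes the cell cycle inhibitor p57, was detected in 50 of 55 SD rat, 105 of 112 chimera rat and 10 of 10 chimera mouse Myog-positive barcodes. Actc1, the cardiac alpha-actin that developing skeletal muscle also makes, was detected in 45, 85 and 4 of them. Mymk, which encodes Myomaker, was found in 31, 56 and 5, and Mymx, which encodes Myomixer, in 18, 45 and 2. Tnnt2, a troponin T of heart and developing muscle, was found in 22, 58 and 3, and Chrnd, the delta subunit of the acetylcholine receptor, in 14, 23 and 4. The remaining 3 genes were rare. Myh3, the embryonic myosin heavy chain, was found in 0, 1 and 2 barcodes, Myl4, an embryonic light chain, in 6, 10 and 2, which in the SD rat is 10.9% beside 10.2% of barcodes with endothelial markers, and Chrng, the fetal receptor subunit, in 0 chimera rat and 1 chimera mouse barcode and was not analysed in the SD rat. The name thus held for p57, cardiac actin and the fusogens in a large share of the rat barcodes, with next to no embryonic myosin.

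Markers of other cell types were next summed over the Myog-positive barcodes, with Pecam1, Ptprc and Pdgfra at 0 by the rule. The 10 endothelial markers summed to 34.6 CPM (counts of a gene scaled to 1000000 UMIs) in the SD rat, 29.3 in the chimera rat and 24.7 in the chimera mouse, against 5607, 4152 and 6395 in barcodes of the same populations that were picked for endothelial markers, so that part of this gap was set by the choice of barcodes. The 13 immune markers summed to 21.0, 65.1 and 18.5 CPM, and the 7 Schwann and glial markers to 22.5, 26.5 and 49.3 CPM. The 9 pericyte and smooth muscle markers summed to 640.2, 716 and 974 CPM, of which Acta2, an actin that early myoblasts also make, gave 349, 307 and 949. The pericyte genes Rgs5, Kcnj8, Abcc9, Cspg4 and Notch3 were at 0 in the SD rat, whereas in the chimera rat Notch3 alone of the list was. The 7 tenocyte markers summed to 72.1 CPM in the SD rat and 228 in the chimera rat, and the 11 fibroblast markers to 1073, 2092 and 462 CPM in the SD rat, chimera rat and chimera mouse, and the barcodes that hold them are described further on. A share of the Myog-positive barcodes was rich in adult fibre transcripts. At least 5% of UMIs lay on fibre genes in 7 SD rat, 3 chimera rat and 0 chimera mouse barcodes. The part these barcodes had in each result was measured by leaving them out, and is given where it moved one.

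Among the myogenic barcodes of the SD rat 55 of 259 were Myog-positive (21.2%, 16.4 to 26.7). In the chimera rat 112 of 319 were (35.1%, 29.9 to 40.6), and in the chimera mouse 10 of 31 (32.3%, 16.7 to 51.4). The chimera rat share was the higher of these values, and with each barcode read on its own species' rows it was 30.9%. The animals gave 1 library each, so the difference was not tested. When each barcode was thinned to 3000 UMIs the shares were 29.7% in the SD rat and 44.6% in the chimera rat. Mouse barcodes made up 10 of 122 species-called Myog-positive barcodes of the chimera (8.20%, 4.0 to 14.6) and 21 of 228 Myog-negative ones (9.21%, 5.79 to 13.7). The intervals of these shares overlapped.

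The Myog-positive and Myog-negative barcodes were next compared gene by gene, by the log2 ratio of their pooled CPM with 5 CPM added to each. The intervals are those of the ratio without the added 5 CPM, so that at low levels the ratio can lie outside its interval. Genes were kept with at least 50 summed UMIs in at least 10 barcodes, and at least 2-fold is used below as a description of size. In the SD rat 312 of 5065 genes were at least 2-fold higher in Myog-positive barcodes (6.16%) and 679 were lower (13.4%). In the chimera rat 318 of 6101 were higher (5.21%) and 657 lower (10.8%). The chimera mouse barcodes were few, and 52 of 980 genes were higher (5.31%) and 105 lower (10.7%). Of the 4986 genes kept in both rat populations 174 were higher in both (3.49%) and 411 were lower in both (8.24%). Among these 4986 genes 311 were higher in the SD rat and 244 in the chimera rat, so the 174 were 55.9% and 71.3% of them, and 9 genes had opposite directions.

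**Figure D2:**
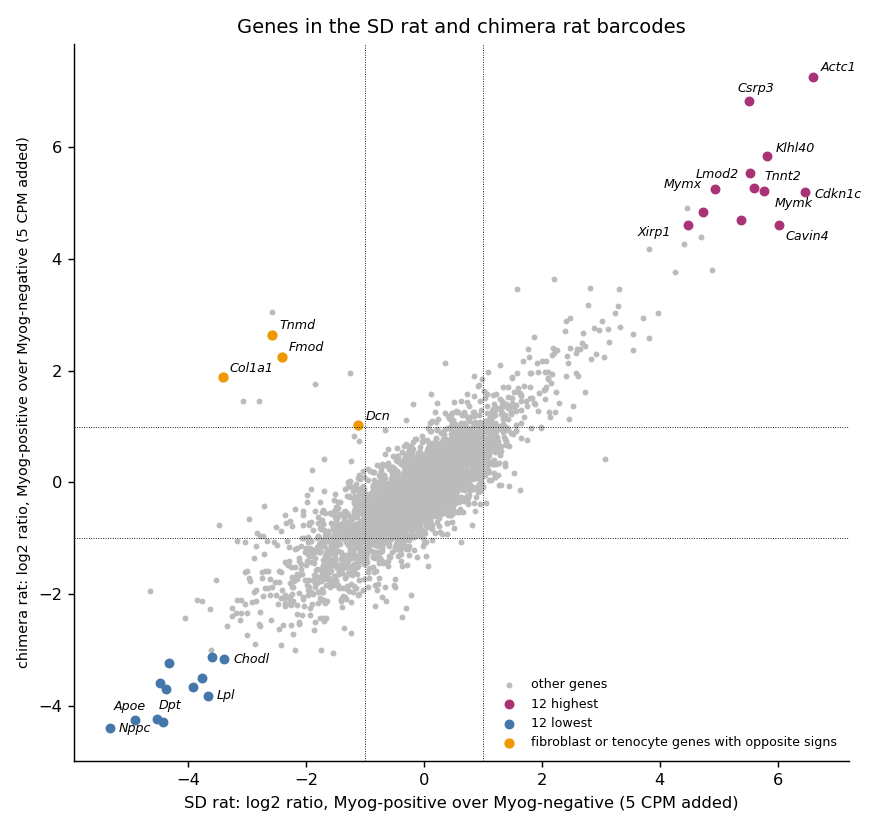
Log2 ratio of Myog-positive over Myog-negative barcodes (5 CPM added) for each gene in the SD rat (x axis) and the chimera rat (y axis), with dotted lines at 2-fold. The 12 highest genes reached ratios from 4.48 for Xirp1 to 7.26 for Actc1, and 4 fibroblast or tenocyte genes lay at opposite signs.

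The plot of ratios in both rat populations has sarcomere and fusion genes and the cell cycle inhibitor Cdkn1c at its upper end. Actc1 had from 0 to 123 UMIs per SD rat Myog-positive barcode with a median of 10, and from 0 to 174 in the chimera rat with a median of 9. No Myog-negative barcode had more than 7. Pooled, Actc1 stood at 1685 against 12.4 CPM in the SD rat (log2 ratio 6.61, 6.42 to 7.85) and at 1975 against 7.96 CPM in the chimera rat (7.26, 7.21 to 8.83). In the chimera mouse it stood at 863 CPM against 0, which is at least 56.4-fold higher when set against a floor of 3 UMIs over the group, and 2 of the 10 barcodes held nearly all of it, with 43 and 91 UMIs. Wherever a group had no UMI the fold is set against this floor, and the exact 95% limit of the log2 ratio, which is closer to 0 than the floor, is given after it (here 5.50).

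The same held for the other genes of the thin filament and its assembly. Klhl40, a protein that stabilises thin filaments, stood at 506 against 4.12 CPM in the SD rat (5.81) and 411 against 2.27 in the chimera rat (5.84). Lmod2, a leiomodin that nucleates actin filaments, stood at 352 against 2.74 CPM (5.53) and 306 against 1.71 (5.54), and in the chimera mouse at 136 CPM against 0, at least 8.86-fold higher by the floor (exact limit 2.73). Tnnt2 stood at 335 against 2.06 CPM (5.59) and 342 against 3.98 (5.27), and in the chimera mouse at 253 against 5.10. These genes were thus all but absent from Myog-negative barcodes of each population. Csrp3, the muscle LIM protein of the Z-disc, stood at 908 against 15.1 CPM (5.51) and 1013 against 3.98 (6.83). Xirp1, an actin-binding protein of adhesion sites, stood at 335 against 10.3 CPM (4.48) and 351 against 9.66 (4.60), and Cavin4, a muscle protein of caveolae, at 717 against 6.18 CPM (6.01) and 308 against 7.96 (4.59). Both Csrp3 and Cavin4 were near 0 in the 10 chimera mouse barcodes, with 2 and 0 UMIs.

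The remaining genes of the 12 highest were not sarcomere genes. Klk1, a kallikrein protease, was detected in 28 of 55 SD rat Myog-positive barcodes and 4 of 204 Myog-negative ones, and in 49 of 112 and 3 of 207 in the chimera rat (log2 ratios 4.73 and 4.83). Ccdc13, a coiled-coil protein, was detected in 30 and 0 SD rat barcodes, at least 98.6-fold higher by the floor (exact limit 6.30), and in 63 and 3 chimera rat barcodes (4.68). Neither gene had a UMI in the chimera mouse, in Myog-positive or Myog-negative barcodes.

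Promoters of 4 of these genes are printed, because genes that were high together may be read beside the letters before their starts. They are 250 bases before the first listed start, from RefSeq on the GRCr8 build, which is not the build of the counts. The letters searched were CAGCTG, an E-box of the kind bound by the MyoD family. They read the same on both strands, and capitals mark them. Mymx is at chr9:22894274-22894523 on the plus strand, Tnnt2 at chr13:49818873-49819122 on the plus strand, Actc1 at chr3:121271828-121272077 on the minus strand and Dpt, a matrix gene among the lowest, at chr13:79656091-79656340 on the plus strand.
Mymx: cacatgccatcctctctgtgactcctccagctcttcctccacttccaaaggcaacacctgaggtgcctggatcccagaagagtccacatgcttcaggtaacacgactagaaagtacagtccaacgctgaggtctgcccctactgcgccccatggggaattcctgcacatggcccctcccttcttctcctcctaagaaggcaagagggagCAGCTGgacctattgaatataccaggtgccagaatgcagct
Tnnt2: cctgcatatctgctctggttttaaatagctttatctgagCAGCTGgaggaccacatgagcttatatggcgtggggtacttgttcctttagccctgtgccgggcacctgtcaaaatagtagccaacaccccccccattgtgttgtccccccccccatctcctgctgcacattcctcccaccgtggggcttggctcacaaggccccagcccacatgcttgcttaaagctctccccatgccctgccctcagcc
Actc1: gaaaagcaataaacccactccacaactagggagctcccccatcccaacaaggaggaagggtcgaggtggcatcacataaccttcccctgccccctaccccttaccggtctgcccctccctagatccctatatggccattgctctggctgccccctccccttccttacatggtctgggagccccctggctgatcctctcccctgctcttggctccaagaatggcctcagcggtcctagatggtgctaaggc
Dpt: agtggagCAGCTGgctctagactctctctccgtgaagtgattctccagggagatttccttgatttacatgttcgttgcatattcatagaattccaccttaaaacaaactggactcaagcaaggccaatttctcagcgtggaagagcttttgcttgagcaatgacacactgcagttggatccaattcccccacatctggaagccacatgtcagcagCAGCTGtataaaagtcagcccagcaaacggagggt
Mymx and Tnnt2 held the letters 1 time, Dpt 2 times and Actc1 0 times. Of the 12 highest genes 9 had an entry and 3 of these held CAGCTG, and of the 12 lowest 8 had an entry and 4 held it. A match describes the letters and is not evidence of binding. Over all promoters of this length 3274 of 27457 genes held it (11.9%).

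**Figure D3:**
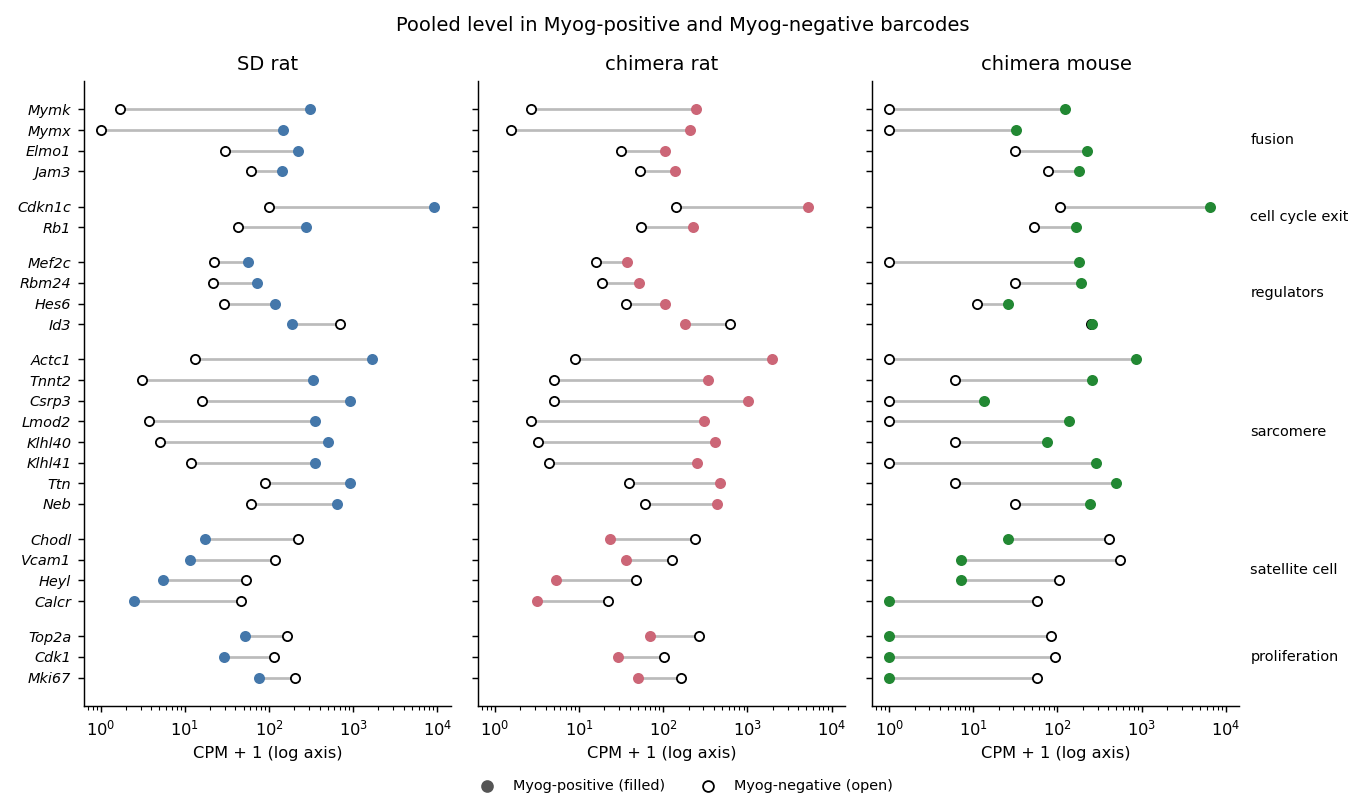
Pooled CPM plus 1 (log axis) of genes grouped by role in Myog-positive (filled) and Myog-negative (open) barcodes of the SD rat, chimera rat and chimera mouse. Cdkn1c stood at 9202, 5304 and 6510 CPM in the Myog-positive barcodes against 98.8, 140.4 and 107 in the Myog-negative ones.

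Genes of cell cycle exit were led by Cdkn1c. It had a median of 92 UMIs per SD rat Myog-positive barcode, 43 in the chimera rat and 36 in the chimera mouse, with highest values of 544, 227 and 440. Its median in Myog-negative barcodes was 0 in each population. The log2 ratios were 6.47 (6.30 to 6.79), 5.19 (5.06 to 5.43) and 5.86 (5.30 to 6.62), as the plot of levels by role shows. Cdkn1c was not silent elsewhere, since it was detected in 31.4%, 34.8% and 47.6% of Myog-negative barcodes and in 26.6%, 22.3% and 49.7% of barcodes with endothelial markers. Rb1, the retinoblastoma protein that holds the cycle closed, was 275 against 41.9 CPM in the SD rat (2.58) and 224 against 54.0 in the chimera rat (1.96). Cdkn1a, the inhibitor p21, stood at 292 against 199 CPM (0.54) and 272 against 142 (0.92), short of 2-fold. Cdkn1b, the inhibitor p27, differed little, with ratios of -0.20 (-0.64 to 0.21) and -0.16 (-0.54 to 0.19). The cyclin D1 gene Ccnd1, which drives cells into the cycle, was lower at 51.1 against 169 CPM (-1.63) and 37.9 against 137 (-1.73). Of 12 cell cycle inhibitor and D cyclin genes kept in the SD rat 2 were 2-fold or more higher and 1 lower, and in the chimera rat 2 were higher and 2 lower. Over all genes 6.16% were higher and 13.4% lower in the SD rat, and 5.21% and 10.8% in the chimera rat.

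Fusion genes were split. Mymk had up to 30 UMIs per SD rat Myog-positive barcode and up to 39 in the chimera rat, and no Myog-negative barcode had more than 1. It stood at 305 against 0.686 CPM in the SD rat (5.77) and 243 against 1.71 in the chimera rat (5.21), and at 123 CPM against 0 in the chimera mouse, at least 8.05-fold higher by the floor (exact limit 2.58). Mymx stood at 147 CPM against 0 in SD rat barcodes, at least 71.5-fold higher by the floor (exact limit 5.84), at 205 against 0.568 in the chimera rat (5.24), and at 30.8 against 0 in the chimera mouse, at least 2.01-fold higher by the floor (exact limit 0.15). Barcodes with endothelial markers gave the background for such detection, at 0.365% with Mymk in the SD rat and 0.324% in the chimera rat, with median depths of 4155 and 5866 UMIs. After thinning to 3000 UMIs Mymk was still found in 39.6% of SD rat and 32.1% of chimera rat Myog-positive barcodes.

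Other fusion and contact genes were higher by less. Elmo1, a partner of the Dock proteins that reshape actin at fusion sites, stood at 219 against 28.8 CPM (2.73) and 105 against 30.7 (1.63). The ferlin gene Myof had ratios of 1.23 and 1.59, the adhesion gene Jam3 1.18 and 1.31, and the caveolin gene Cav3 1.09 and 1.97. On the other side Adam12, a metalloprotease, was lower at 40.6 against 112 CPM (-1.36) and 27.9 against 195 (-2.60). Cd9, a tetraspanin that restrains fusion, was lower in the SD rat at -1.76 and near its Myog-negative level in the chimera rat at -0.35. Of the fusion list 11 genes were kept in the SD rat, with 6 at least 2-fold higher and 3 lower, and 12 in the chimera rat, again with 6 higher and 3 lower. The medians were 1.09 and 0.63, beside 0.01 and -0.06 over all genes. Over all genes 6.16% were higher and 13.4% lower in the SD rat, and 5.21% and 10.8% in the chimera rat. In the chimera mouse 3 genes of the list were kept, without Mymk and Mymx, with 0 higher, 1 lower and a median of -0.30.

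Among myogenic regulators the rule fixed Myog, and Myod1 was part of it. Myod1 stood at 110 CPM in SD rat Myog-positive barcodes against 113 in Myog-negative ones, and at 102 against 67.6 in the chimera rat. Mef2c, the partner of myogenin at muscle promoters, was higher at 55.6 against 21.3 CPM (1.21) and 36.5 against 14.8 (1.07). Rbm24 and Rbm38, RNA-binding proteins of muscle differentiation, had ratios of 1.56 and 1.58 in the SD rat and 1.28 and 1.95 in the chimera rat. Hes6, which opposes Hes1, stood at 116 against 28.1 CPM (1.87) and 103 against 35.2 (1.42). Id3 and Msc, which inhibit the MyoD family, lay on the other side in the rat populations. Id3 stood at 185 against 694 CPM in the SD rat (-1.88, -2.19 to -1.64) and 180.2 against 617 in the chimera rat (-1.75, -1.98 to -1.58). In the chimera mouse Id3 was 253 against 249.9 CPM (0.02, -0.62 to 0.64), which rests mostly on 2 barcodes. These 2 had 2 to 3 Myog UMIs and 31 Id3 UMIs. Barcodes with 4 to 9, 10 to 29 and 30 or more Myog UMIs held 8, 1 and 1. Msc, musculin, had ratios of -2.91 and -2.14. Myf6, the fibre factor Mrf4, was lower in Myog-positive barcodes, at 15 against 48.7 CPM (-1.42) and 9.29 against 25.6 (-1.10). In all 15 regulators were kept in the SD rat, with 5 higher and 3 lower, and 16 in the chimera rat, with 5 higher and 4 lower. The shares of all genes were 6.16% higher and 13.4% lower in the SD rat, and 5.21% and 10.8% in the chimera rat.

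Developmental and early sarcomere genes were higher as a group in both rat populations. Of 18 kept in the SD rat 10 were at least 2-fold higher and 0 lower, with a median ratio of 1.31. Of 18 in the chimera rat 18 were higher, with a median of 2.25. Over all genes 6.16% were higher in the SD rat and 5.21% in the chimera rat. In the chimera mouse 8 were kept, with 1 higher, 1 lower and a median of 0.09, beside 0.03 over all genes. The giant proteins of the sarcomere were already present. Ttn, titin, stood at 924 against 88.5 CPM in the SD rat (3.31) and 473 against 38.6 in the chimera rat (3.45), and Neb, nebulin, at 645 against 59.7 (3.33) and 435 against 59.1 (2.78). Klhl41, a relative of Klhl40, stood at 347 against 11.0 CPM (4.46) and 248 against 3.41 (4.91), and in the chimera mouse at 284 against 0, at least 18.5-fold higher by the floor (exact limit 3.85). Intermediate filament genes followed, with Des at 930 against 369 CPM (1.32) and 1006 against 384 (1.38) and Nes at ratios of 1.30 and 2.11. Acta2, the smooth muscle actin that early myoblasts also make, stood at 349 against 98.8 CPM (1.77) and 307 against 54.6 (2.39).

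The fetal myosins were close to the limit of detection. Myh8, the perinatal heavy chain, was found in 1 SD rat and 5 chimera rat Myog-positive barcodes. Abundant fibre actin and light chain genes could not be read per barcode, since Acta1 was present in every Myog-positive and Myog-negative barcode of the 3 populations. Without barcodes with at least 5% fibre UMIs 11 of 18 genes of the early sarcomere list were at least 2-fold higher in the SD rat and 14 of 18 in the chimera rat, with 0 lower.

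**Figure D4:**
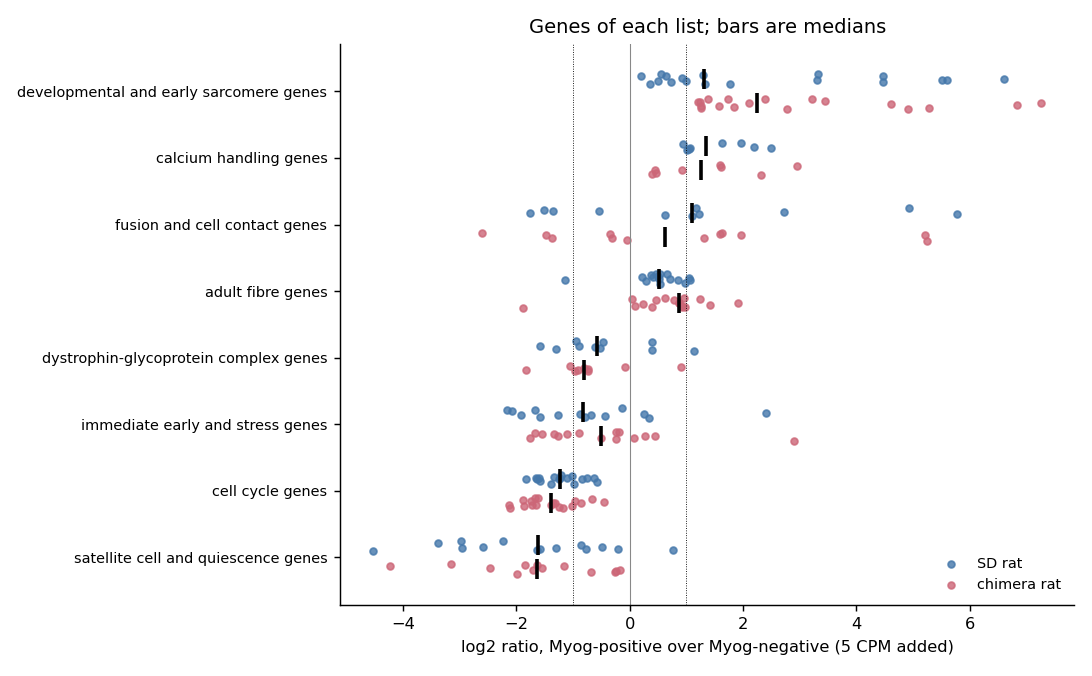
Log2 ratios (5 CPM added) of the kept genes of 8 lists, Myog-positive over Myog-negative, in the SD rat and chimera rat, with list medians as bars and dotted lines at 2-fold. Medians ran from 1.31 and 2.25 for early sarcomere genes to -1.61 and -1.64 for satellite cell genes.

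Adult fibre genes differed less, as the plot of list ratios shows. Of 16 kept in the SD rat 2 were higher and 1 lower, with a median of 0.53, and of 17 in the chimera rat 3 were higher and 1 lower, with a median of 0.87. Among all genes 6.16% were higher and 13.4% lower in the SD rat, and 5.21% and 10.8% in the chimera rat. Ckm, muscle creatine kinase, stood at 2343 against 1654 CPM (0.50) and 1358 against 692 (0.97), and Myh4, the fast IIb myosin, at 289.9 against 182 (0.66) and 107 against 67.1 (0.63). Without the fibre-rich barcodes the median was -0.80 in the SD rat and 0.07 in the chimera rat, so the direction of this list turned in the SD rat. Mybpc1, the slow myosin-binding protein C, was lower at 107 against 242 CPM (-1.14) and 44.3 against 177 (-1.88).

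Genes of excitation and contraction coupling were on the higher side in both rat populations. Of 8 kept calcium handling genes 7 were at least 2-fold higher in the SD rat and 4 in the chimera rat, with 0 lower and medians of 1.35 and 1.26. Over all genes 6.16% were higher in the SD rat and 5.21% in the chimera rat. Stac3, an adaptor of the calcium channel at the triad, stood at 144 against 27.4 CPM (2.20) and 117 against 19.3 (2.32). Srl, sarcalumenin of the sarcoplasmic reticulum, had ratios of 2.49 and 2.94, Cacng1, a channel subunit, 1.96 and 1.61, and Jsrp1, a junctional protein, 1.63 and 1.60. Atp2a2, the slow calcium pump, stood at 304 against 149 CPM (1.00) and 212 against 155 (0.44).

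Receptors for the motor nerve were unequal. Chrna1 was part of the rule and stood at 199.9 against 14.4 CPM in the SD rat and 157 against 9.09 in the chimera rat. In the chimera mouse it was 240.4 against 173 CPM, and 15 of the 21 Myog-negative mouse barcodes had it, against 14 of 204 in the SD rat and 11 of 207 in the chimera rat. Chrnd stood at 25.5 against 0.686 CPM in the SD rat and 20.0 against 0 in the chimera rat, at least 11.7-fold higher by the floor (exact limit 3.16). It did not reach the count needed for the gene-wise comparison. Chrnb1, the beta subunit, differed by less than 2-fold (0.62 and 0.51), and so did Musk, the receptor kinase of the synapse (0.88 and 0.66). Rapsn, rapsyn, which clusters the receptor, was lower at 52.6 against 103 CPM (-0.91) and 45.8 against 102 (-1.08). Of 3 kept genes of this list 0 were higher in either population.

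Satellite cell genes were lower as a group. Without the genes of the rule, 9 of 14 kept genes were at least 2-fold lower in the SD rat and 9 of 13 in the chimera rat, with 0 higher and medians of -1.61 and -1.64. Over all genes 13.4% were lower in the SD rat and 10.8% in the chimera rat. The Myog-negative barcodes were chosen by Pax7, Myf5, Cdh15 and Megf10, so the choice may have set part of this gap. Pax7, used for the comparison group, was still found in 5 of 55 SD rat, 15 of 112 chimera rat and 6 of 10 chimera mouse Myog-positive barcodes. Chodl, chondrolectin, had a median of 0 UMIs in Myog-positive barcodes of each population and of 1, 1 and 4 in Myog-negative ones. It stood at 16.5 against 219.6 CPM in the SD rat (-3.38), 22.2 against 237 in the chimera rat (-3.16) and 24.7 against 413 in the chimera mouse (-3.82). Vcam1, an adhesion receptor, stood at 10.5 against 117 CPM (-2.97), 35.0 against 126 (-1.71) and 6.16 against 556 (-5.65). Calcr, the calcitonin receptor that keeps satellite cells quiet, was found in 1 SD rat Myog-positive barcode against 37 Myog-negative ones (-2.95). Sdc4, syndecan 4, had ratios of -1.58, -1.54 and -1.34 and Fgfr4, a growth factor receptor, of -1.31 and -1.85. Foxo3, a factor of quiescence, stood at 48.1 against 26.1 CPM in the SD rat (0.77) and 48.6 against 58.0 in the chimera rat (-0.23).

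Notch signalling keeps satellite cells undifferentiated through Hey and Hes repressors. Its targets Heyl and Hes1 were lower, with Heyl at 4.51 against 52.2 CPM in the SD rat (-2.59) and 4.29 against 46.0 in the chimera rat (-2.46), and Hes1 at -1.64 in both. The receptor gene Notch1 differed little (-0.21 and -0.04), and Notch2 stood at -0.74 and -1.25. Rbpj, the nuclear partner of the receptors, was at -0.18 and 0.18. Of 6 kept Notch pathway genes in the SD rat 1 was higher and 2 were lower, and of 8 in the chimera rat 1 was higher and 3 were lower, the higher one being Hes6 in both. The shares over all genes were 6.16% higher and 13.4% lower in the SD rat, and 5.21% and 10.8% in the chimera rat.

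Proliferation genes were lower. Of 17 kept cell cycle genes 12 were at least 2-fold lower in the SD rat and of 19 in the chimera rat 15 were, with 0 higher and medians of -1.23 and -1.39. Over all genes 13.4% were lower in the SD rat and 10.8% in the chimera rat. Mki67 stood at 75.1 against 204 CPM (-1.38) and 49.3 against 161 (-1.61), Top2a, the mitotic topoisomerase, at 51.1 against 164 (-1.59) and 68.6 against 265 (-1.87), and Cdk1 at 28.6 against 114 (-1.83) and 27.9 against 100.0 (-1.68). Cycling barcodes, with at least 3 of 10 cycle genes detected, made up 6 of 55 SD rat and 8 of 112 chimera rat Myog-positive barcodes, and 32 of 204 and 41 of 207 Myog-negative ones. None of the 10 chimera mouse Myog-positive barcodes was cycling, which allows a share of up to 30% by a floor of 3 barcodes (exact limit 30.8%), and 3 of the 21 Myog-negative ones were. Without cycling barcodes 4 genes of the list were kept in each rat population, and 2 were at least 2-fold lower.

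The 12 lowest genes in both rat populations encoded mostly secreted or surface proteins. Nppc, the precursor of C-type natriuretic peptide, had no UMI in SD rat Myog-positive barcodes against 196 CPM in the Myog-negative ones, at least 43.4-fold lower by the floor (exact limit -5.13). It stood at 27.9 against 686 CPM in the chimera rat (-4.39) and at 55.5 against 924 in the chimera mouse (-3.94). Of the 39 Nppc UMIs in chimera rat Myog-positive barcodes 1 barcode held 56.4%. Apoe, apolipoprotein E, stood at 30.1 against 798 CPM (-4.52), 28.6 against 627 (-4.23) and 92.5 against 638 (-2.72). Dpt, the matrix protein dermatopontin, had medians of 0 against 4 UMIs in the SD rat and 0 against 3 in the chimera rat, and ratios of -4.37 and -3.69. Lpl, lipoprotein lipase, stood at 117 against 1544 CPM (-3.66) and 98.7 against 1450.5 (-3.81), whereas the chimera mouse had 61.6 against 66.3 (-0.10, -1.46 to 1.20).

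Cxcl9, a chemokine, had ratios of -4.42 and -4.28 in the SD rat and chimera rat, C1qtnf5, a secreted C1q relative, -4.47 and -3.58, and Erfe, the hormone erythroferrone, -4.31 and -3.22. In the chimera mouse Erfe stood at 12.3 against 265 CPM (-3.96), and Cxcl9 and C1qtnf5 had 1 or 0 UMIs there. B3galt1, a galactosyltransferase, was at -3.77 and -3.50. Arhgap6, a GTPase-activating protein, had no UMI in SD rat Myog-positive barcodes, at least 12.2-fold lower by the floor (exact limit -3.27), and was at -3.11 in the chimera rat. The unnamed gene AABR07028488.1 was at -3.92 and -3.65. Each of these 6 genes was found in many more Myog-negative than Myog-positive barcodes of both rat populations, as with Cxcl9 in 75 against 3 SD rat barcodes.

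Further lists were mixed. The dystrophin complex, which ties the cytoskeleton of fibres to the matrix, had 1 gene higher and 2 lower of 10 in the SD rat and 0 and 2 of 9 in the chimera rat, beside 13.4% and 10.8% of all genes lower, and medians of -0.57 and -0.81. Lama2, the laminin chain outside the membrane, was lower at 206 against 628 CPM (-1.59), 144 against 523 (-1.83) and 173 against 429 (-1.29), and Dag1, dystroglycan, stood at -0.89, -1.06 and -0.57. Dmd, which the injected mouse cells carried in edited form, stood at 72.1 against 53.5 CPM in the SD rat, 31.5 against 63.7 in the chimera rat and 819.9 against 760.3 in the chimera mouse (0.11, -0.24 to 0.46). Its detection was lower in Myog-positive barcodes of both rats, at 6 of 55 against 53 of 204 in the SD rat (1.89% against 12.0% after thinning) and 17 of 112 against 62 of 207 in the chimera rat (3.67% against 14.1%). Only 2 of the 6 SD rat barcodes had 2 or more of the 48 UMIs, so the SD rat level rests on them. In the chimera mouse Dmd was detected in 8 of 10 against 18 of 21 barcodes. These counts do not show which Dmd allele was read.

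Genes of insulin-like growth factors were mixed. Igf1 was lower at 25.5 against 137 CPM (-2.21), 50.0 against 235 (-2.12) and 136 against 485 (-1.80), and Igfbp7 at -2.26 and -2.19 in the SD rat and chimera rat. Igfbp3 was higher at 58.6 against 12.4 CPM (1.87) and 73.6 against 7.96 (2.60), and 1 barcode held up to 58.5% of its UMIs in a population. Over all genes 6.16% and 5.21% were higher and 13.4% and 10.8% lower in the SD rat and chimera rat. In the list 1 gene was higher and 3 were lower of 10 in the SD rat and of 11 in the chimera rat. Without barcodes rich in fibroblast and tenocyte markers, an alternative described further on, 0 were higher, with 3 of 9 and 5 of 10 lower. Of the immediate early and stress genes 6 were lower and 1 higher of 14 in the SD rat and of 15 in the chimera rat, and 3 were lower and 3 higher of 11 in the chimera mouse. Among all genes 13.4%, 10.8% and 10.7% were lower and 6.16%, 5.21% and 5.31% higher in these populations. Fos stood at 689.8 against 2213 CPM (-1.67) and 708 against 1801 (-1.34). The higher gene of both rat populations was Cryab, the small heat shock protein alpha-B-crystallin, at 2275 against 423 CPM (2.41), 2640.3 against 351 (2.89) and 2632 against 367 (2.82).

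**Figure D5:**
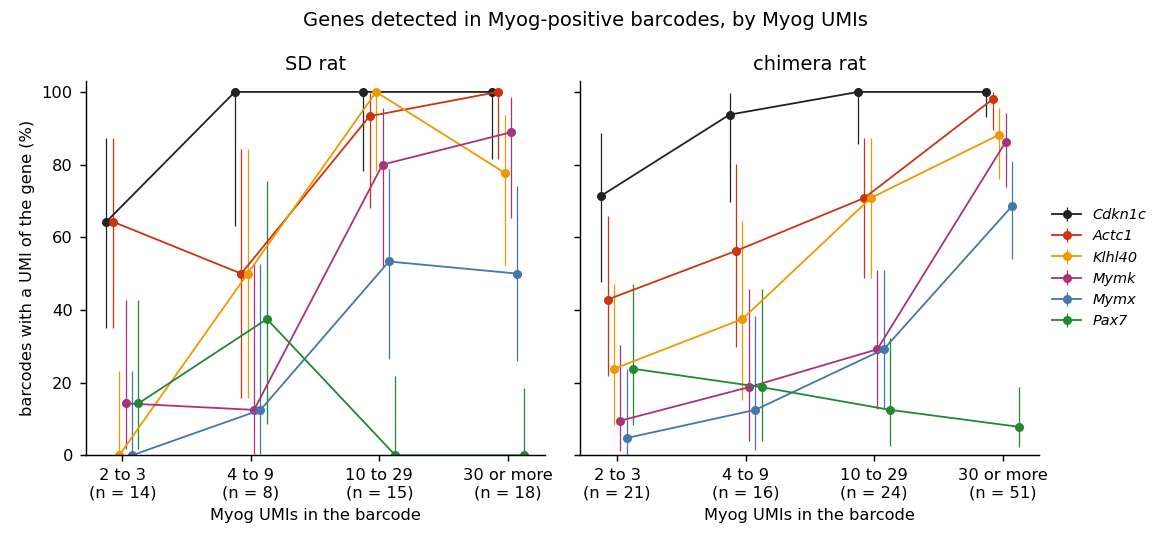
Share of Myog-positive barcodes with a UMI of 6 genes (percent, with exact 95% intervals) by Myog UMIs in the barcode, for the SD rat and the chimera rat. Mymk went from 2 of 14 to 16 of 18 SD rat barcodes and from 2 of 21 to 44 of 51 chimera rat barcodes between the lowest and the highest class.

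The Myog-positive barcodes were not alike, and their content was set out by Myog UMIs in classes of 2 to 3, 4 to 9, 10 to 29 and 30 or more, chosen after the values were seen. The classes held 14, 8, 15 and 18 SD rat barcodes and 21, 16, 24 and 51 chimera rat barcodes. They used summed rows, with 56.0% of chimera rat Myog UMIs on the mouse row, so a class may not match between populations. Their depth also differed, with medians of 8880, 10024, 12431 and 14781 UMIs in the SD rat and 8411, 10541.5, 11092.5 and 14789 in the chimera rat, so detection by class is given beside the level in CPM. Mymk or Mymx was found in 2, 1, 12 and 16 SD rat barcodes and in 2, 3, 9 and 44 chimera rat barcodes, as the plot of detection by Myog class shows. With each barcode thinned to 3000 UMIs the shares were 0%, 12.5%, 60% and 77.8% in the SD rat and 0%, 6.67%, 33.3% and 68.6% in the chimera rat. The order of the lowest and highest class was thus the same at equal depth.

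Mymk stood at 18.3, 46.5, 315 and 494 CPM across the 4 SD rat classes and at 15, 18.5, 86.5 and 404 CPM across those of the chimera rat. Actc1 stood at 312, 360.0, 1667 and 2664 CPM and at 115, 321, 1436 and 2992 CPM. Both genes were lowest in the low Myog classes and highest at 30 or more Myog UMIs. Cdkn1c was already at 2886 and 4018 CPM in the 2 low SD rat classes, and reached 10822 and 12192 in the others. Its chimera rat levels were 979.7, 2321, 4268 and 7411 CPM. Pax7 went the other way, at 18.3, 69.7, 0 and 0 CPM in the SD rat and 50.0, 61.7, 11.3 and 6.49 CPM in the chimera rat. These Pax7 levels rest on 2, 6, 0 and 0 UMIs and on 10, 10, 3 and 5 UMIs, and in the chimera rat Pax7 was found in 5, 3, 3 and 4 barcodes. The low Myog classes also held most fibre-rich barcodes, 4, 2, 1 and 0 in the SD rat and 2, 1, 0 and 0 in the chimera rat, and Ckm was highest there, at 4334, 6445, 1463 and 889 CPM and at 5364, 1648, 519 and 546 CPM. The part of the fibre-rich barcodes in the classes was not tested.

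Genes of the fusion pair were found together. All 18 SD rat barcodes with Mymx also had Mymk, and 13 had Mymk alone. Of the chimera rat barcodes 43 had both, 13 Mymk alone and 2 Mymx alone, and in the chimera mouse 2 had both and 3 Mymk alone. Actc1 accompanied fusion transcripts in 31 of 31 SD rat and 55 of 58 chimera rat barcodes, and in 3 of 5 of the chimera mouse. Pax7 or Myf5 was found in 5 SD rat barcodes, of which 0 had Mymk or Mymx, and in 27 chimera rat barcodes, of which 8 did. Of the cycling barcodes 1 of 6 in the SD rat and 1 of 8 in the chimera rat had a fusion gene, whereas 6 of 6 and 7 of 8 had Cdkn1c. Transcripts of p57 and of the cycle genes were thus present in the same barcodes. This share was near that of all Myog-positive barcodes, of which 50 of 55 and 105 of 112 had Cdkn1c.

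The 10 chimera mouse barcodes ran from 3 to 96 Myog UMIs and were also not alike. The highest had 96 Myog, 440 Cdkn1c, 91 Actc1, 5 Mymk and 3 Mymx UMIs and no Pax7. The next, with 35 Myog UMIs, had 244 Cdkn1c, 43 Actc1, 36 Tnnt2, 36 Klhl41, 5 Mymk and 2 Mymx UMIs and also no Pax7. These 2 barcodes carried most Actc1, Tnnt2 and Klhl41 UMIs of the mouse population. A barcode with 3 Myog UMIs had 6 Pax7 and 22 Cdkn1c UMIs and none of Actc1, Tnnt2, Mymk or Mymx. Pax7 was present in 6 of the 10, against 15 of 112 in the chimera rat. The mouse barcodes were deeper (median 17248.5 against 11665 UMIs) and had fewer Myog UMIs (median 8 against 25.5). Pax7 was also higher in Myog-negative barcodes of the chimera mouse than of the chimera rat, at 403 against 183 CPM. In chimera rat Myog-positive barcodes 50% of the Pax7 UMIs and 56.0% of the Myog UMIs lay on the mouse row. Counts of these genes may therefore not be a like measure in the rat and mouse barcodes. Mef2c stood at 179 CPM against 0, at least 11.7-fold higher by the floor (exact limit 3.15), but 29 UMIs lay in only 2 barcodes, so that this value rests on few cells.

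Chimera rat and SD rat Myog-positive barcodes were compared directly, after scaling the chimera counts to the symbols of the SD rat reference. Of 4566 genes 89 were at least 2-fold higher in the chimera rat (1.95%) and 69 lower (1.51%). The genes of differentiation lay close together on this scale. Actc1 stood at 2049 against 1685 CPM (0.28), Tnnt2 at 354 against 335 (0.08), Mymk at 252 against 305 (-0.27) and Mymx at 213 against 147 (0.52). Cdkn1c was lower in the chimera rat at 5502 against 9202 CPM (-0.74, -0.79 to -0.69), and Cavin4 at 319.6 against 717 (-1.15). Adult fibre genes were also on the lower side, with 5 of 16 at least 2-fold lower and 0 higher, as with Mb, myoglobin, at 54.1 against 309.6 CPM (-2.41). The SD rat had the more fibre-rich barcodes, 7 of 55 against 3 of 112. Animal, library and reference cannot be told apart here.

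The highest genes of that comparison were read mainly through mouse rows. Camk1d, a calmodulin kinase, stood at 794 against 6.01 CPM (6.18), Lars2, a mitochondrial leucyl-tRNA synthetase, at 366 against 3.01 (5.53), and Cmss1 at 1065 against 42.1 (4.51). Hmgb1 and Gphn belonged with them. Between 96.7% and 100% of the chimera rat UMIs of these 5 genes lay on mouse rows, and when each barcode was read on its own species' rows Cmss1 stood at -0.21. Hmgb1 and Gphn had 0 UMIs in the SD rat, with chimera levels of 213 and 125 CPM. The lowest was Hs6st3, a heparan sulfate sulfotransferase, at 4.45 against 819 CPM (-6.45). Glis1 and Nell1 followed at -4.17 and -3.70, and Pttg1, securin, and Rbfox1, a splicing factor, stood at -1.86 and -1.82. Within each population Camk1d and Hs6st3 differed little between Myog-positive and Myog-negative barcodes, with ratios of 0.11 for Camk1d in the chimera rat and -0.40 for Hs6st3 in the SD rat. Myog itself had 56.0% of its chimera rat UMIs on the mouse row, and with own-species rows 92 in place of 112 chimera rat barcodes met the rule.

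Fibroblast and tenocyte genes had opposite signs in the rat populations and lay in few barcodes. Col1a1, a fibrillar collagen, stood at 284 against 3067 CPM in the SD rat (-3.41) and at 1151 against 309.8 in the chimera rat (1.88). In the chimera rat 3 of 112 Myog-positive barcodes held 693, 543 and 267 of its 1610 UMIs, and in the SD rat 2 of the Myog-negative barcodes held 2649 and 833 of 4470. Barcodes with at least 1% of their UMIs on fibroblast and tenocyte markers numbered 1 SD rat and 3 chimera rat Myog-positive ones and 4 and 3 Myog-negative ones. Without them, an alternative chosen after seeing the data, Col1a1 stood at -1.70 and -1.42. Of the fibroblast list 0 genes were then higher and 4 of 5 lower in both populations. With all barcodes, 13.4% of all genes were lower in the SD rat and 10.8% in the chimera rat. The barcodes left out were picked by markers of these same lists, so the values without them were in part set by the choice.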

How the data were processed

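Live cells of whole-body muscle from 1 chimera and 1 SD rat were profiled by droplet single-cell RNA-seq. The authors counted UMIs with Cell Ranger 7.1.0, and these counts were deposited without normalization. The chimera was mapped to a combined rat (mRatBN7.2), mouse (GRCm39) and EGFP reference and the SD rat to rat genes. Rows of a symbol were summed. Barcodes were kept with at least 500 UMIs, 200 genes and at most 20% mitochondrial UMIs. Doublets were kept and their removal with Scrublet (scanpy 1.11.5) was an alternative: 164 SD rat and 444 chimera barcodes were predicted, among them 0 and 3 Myog-positive ones. Pooled counts were turned into CPM with Python 3.11.15, NumPy 2.4.6, SciPy 1.17.1 and pandas 2.3.3, and figures drawn with matplotlib 3.10.9. Ratios were computed over all genes, with exact conditional binomial intervals of the ratio. Shares had Clopper-Pearson intervals. Only the step of ratios and intervals was tested on simulated data, in which barcodes of a group differed by depth and counting error alone. Named were, outside the genes of the rule, the 12 highest and 12 lowest by the smaller ratio of both rat populations, the 6 highest and 6 lowest of the chimera rat against the SD rat, and genes of the lists. Values of 2 genes that this rule named are not reported here. Members, lists and tests were chosen with earlier results of these data known.

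With 1 library per group no test between groups was possible. Alternatives changed the Myog and depth minimum, the comparison rule, the species limits, the rows used, the CPM added, the count minimum, pooling and thinning, and left out doublets and fibre-rich or cycling barcodes. Leaving out connective-rich barcodes was added after seeing the data.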

Additional observations from a re-analysis of the deposited data

Results flagged for a closer look

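For 4 connective tissue genes the ratio of Myog-positive over Myog-negative barcodes had opposite signs in the SD rat and the chimera rat, and these differences were not tested. Col1a1 stood at -3.41 and 1.88. Dcn, the proteoglycan decorin, stood at -1.12 and 1.03. Fmod, fibromodulin of tendon, stood at -2.41 and 2.25, and Tnmd, tenomodulin, at -2.57 and 2.64. In the chimera rat the 3 highest Myog-positive barcodes held 93.4% of the Col1a1, 88.8% of the Dcn, 97.6% of the Fmod and 99.2% of the Tnmd UMIs. In the SD rat the 3 highest Myog-negative barcodes held 78.9%, 72.0%, 89.5% and 82.7% of them.

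EGFP, which no comparison used, had 9 UMIs in the chimera. Of these 7 lay in 5 of the 21 chimera mouse Myog-negative barcodes (counting interval 2.81 to 14.4 UMIs), and 0 in the 10 chimera mouse Myog-positive barcodes, where a count of 0 allows up to 3 UMIs by the floor used in the report and 3.69 by the exact interval.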

How the results depend on the processing

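No paired analysis was possible because each group was 1 library. Of 15 alternative settings 12 gave counts of genes, and 66 of 72 counts of genes that differed between Myog-positive and Myog-negative barcodes stayed within 1.5 times their value, as did 17 of 22 (11 settings) for the chimera rat against the SD rat. With at least 200 summed UMIs, where fewer genes are kept, 94 genes were higher and 208 lower in the SD rat, 132 and 221 in the chimera rat, 7 and 13 in the chimera mouse, and 24 and 16 in the chimera rat against the SD rat. With rows of a barcode's own species the last comparison gave 58 higher and 120 lower, with Cmss1 at -0.21, and as a mean over barcodes it gave 104 lower. The Myog-positive share was 32.9% in the SD rat and 42.2% in the chimera rat with 1 Myog UMI as the minimum, and 29.7% and 44.6% after thinning. With species limits of 10% and 90% mouse barcodes were 19.1% of the Myog-negative ones. Without predicted doublets Col1a1 and Dcn in the chimera rat turned to -0.16 and -0.25. Without connective-rich barcodes, an alternative chosen after seeing the data, they turned to -1.42 and -0.58. Those barcodes were picked by these genes among others, so this shift was in part set by the choice. As a mean over barcodes Dcn in the SD rat turned to 0.19. The cause of these shifts was not tested further. In the chimera mouse, with 10 and 21 barcodes, 980 genes were kept.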
